A study of Mus musculus with 24 samples.

Results

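Podocytes are a rare cell type of the kidney, and 7 genes that these cells use to build the glomerular filter were followed here through all libraries of the study. The genes were taken by symbol from a list of podocyte and slit diaphragm genes (Nphs1, Podxl, Synpo, Wt1, Ptpro, Magi2 and Cd2ap), and all 7 were found among the 37315 genes of the kidney count table. All 7 were detected in 18 of 18 kidney libraries, and the share of all genes detected in every kidney library was not counted. The level at which 5 of them were read was lower in both experiments made with the SMARTseq kit than in the experiment made with the NEBNext kit (among all genes tested 39.5% were lower in Experiment 2 and 34.7% in Experiment 3), and Nphs1 and Synpo differed most in Experiment 2. Allelic imbalance (AI) of 6 of the genes could be compared between experiments, and no difference passed the test. Of all genes tested 10.6% passed from Experiment 1 to 2, 0.639% from 2 to 3 and 6.24% from 1 to 3.

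Podocytes wrap the capillaries of the glomerulus with interlocking foot processes, and a cell junction called the slit diaphragm spans the gaps between these processes and holds back protein from the urine. Nphs1 encodes nephrin, the adhesion protein that forms the diaphragm itself, and lies at chr7:30458315-30487223. Cd2ap (chr17:42792951-42876665) encodes an adaptor that ties nephrin to the actin skeleton and is used by many cell types, lymphocytes among them. Magi2 (chr5:19227036-20704792) encodes a scaffold protein with PDZ domains that also binds nephrin and is used in neurons. Podxl (chr6:31519488-31563981) encodes podocalyxin, the negatively charged sialomucin that keeps foot processes apart and is also made by endothelium. Ptpro (chr6:137252319-137463233) encodes a receptor tyrosine phosphatase of the podocyte surface. Synpo (chr18:60593973-60660142) encodes synaptopodin, an actin-binding protein of the foot process. Wt1 (chr2:105126529-105173616) encodes the zinc finger transcription factor that the podocyte keeps expressing in the adult kidney. Positions are those of the deposited table on GRCm38.

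All kidney libraries were made from aliquots of RNA of 1 left kidney of an untreated adult female F1 mouse (129S1/SvImJ x CAST/EiJ), so the experiments differ in library preparation and not in the cells sampled. Experiment 1 holds 6 libraries from 100 ng of RNA made with the NEBNext Ultra RNA Poly-A kit, Experiment 2 holds 6 from 10 ng made with SMARTseq v4, and Experiment 3 holds 6 from 100 pg made with SMARTseq v4. Kit and input changed together between Experiments 1 and 2, and their parts cannot be told apart there. Experiments 2 and 3 share the kit and differ in input, but each was prepared as its own set of libraries. The parts of input and of preparation set cannot be told apart either. Abl.1 and Abl.2 are immortalised B cell lines of the same strain background, each grown from 1 clone, in growth medium, with 2 libraries each from 10 ng made with SMARTseq, and both Abl.2 libraries were sequenced a second time. Replicates are libraries and not animals, so p-values measure the spread between library preparations. Allelic counts are read counts at SNPs of the 2 strains, summed over all SNPs in the exons of a gene. A read that covers 2 SNPs is counted at both, and the paper states that such counts are not independent. The total of allelic counts per library was 6138693 to 6702351 in kidney and 19213150 to 22410835 in the Abl lines. Because a gene with more SNPs gathers more counts, differences in level were tested between libraries and not between genes. Replicate 1 of Experiment 1 stood apart in AI: the quality correction constant (QCC), the factor by which AI of replicate pairs spreads beyond counting error, was 1.84 ± 0.180 (SD over 15 pairs) in Experiment 1 and 1.72 ± 0.0388 over the 10 pairs without this library. In Experiment 2 it was 1.47 ± 0.0148, and in Experiment 3 it was 2.59 ± 0.0488.

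RefSeq promoter windows (GRCm38.p6, 250 bases before to 50 after a gene start) were at hand for 4 of the 7 genes. The Nphs1 window lies downstream of the gene start given above (chr7:30458315), because the RefSeq start differs from that of the deposited table. The windows of Nphs1 and Ptpro, which had no count in the Abl lines, and of Cd2ap, which was read in every library of the study, are shown as examples of genes read in kidney alone and in both sample types. Capitals mark matches on either strand to GCGNGGGNG, a box bound by zinc finger factors of the WT1 and EGR family, and to GGGCGG, the SP1 box, and the 2 motifs do not overlap in the windows shown.
Nphs1, chr7:30459808-30460107, plus strand: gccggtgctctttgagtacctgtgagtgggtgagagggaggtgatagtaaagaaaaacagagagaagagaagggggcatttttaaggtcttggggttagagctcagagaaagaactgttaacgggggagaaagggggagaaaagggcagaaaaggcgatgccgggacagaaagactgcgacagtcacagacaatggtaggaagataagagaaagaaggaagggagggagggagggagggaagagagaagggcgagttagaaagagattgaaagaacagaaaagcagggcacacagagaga
Ptpro, chr6:137252049-137252348, plus strand: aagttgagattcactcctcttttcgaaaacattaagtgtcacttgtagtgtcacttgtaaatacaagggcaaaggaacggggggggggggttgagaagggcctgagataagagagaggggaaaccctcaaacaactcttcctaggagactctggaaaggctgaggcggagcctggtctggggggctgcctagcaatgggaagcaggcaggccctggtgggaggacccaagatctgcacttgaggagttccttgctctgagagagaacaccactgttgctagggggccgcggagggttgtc
Cd2ap, chr17:42876375-42876674, minus strand: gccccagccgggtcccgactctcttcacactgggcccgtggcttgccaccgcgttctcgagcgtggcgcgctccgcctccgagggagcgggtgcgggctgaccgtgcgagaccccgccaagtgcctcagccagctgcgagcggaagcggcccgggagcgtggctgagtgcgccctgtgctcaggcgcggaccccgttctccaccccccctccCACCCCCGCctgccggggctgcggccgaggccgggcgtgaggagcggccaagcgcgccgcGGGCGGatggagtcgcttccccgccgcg
The Cd2ap window held 41 CpG dinucleotides and 77% GC, against 6 and 49.7% in Nphs1 and 5 and 54.7% in Ptpro. Magi2, read at few counts in kidney and in Abl.2, had 2 windows that are not shown, 1 with 29 CpG dinucleotides, 69.3% GC and 1 match to the first motif, the other with 4, 43% and 1 match to the SP1 box. Over all 32544 windows of the table the medians were 7 CpG dinucleotides and 53% GC. Neither box occurred in the Nphs1 and Ptpro windows, and Cd2ap held 1 match to each, while 12.4% of all windows hold the first motif and 35.9% the SP1 box. These matches describe the letters of these windows only.

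Of the 7 genes nephrin differed most between Experiments 1 and 2. Nphs1 was read at 44.4, 49.0 and 56.2 CPM (lowest, median and highest library; CPM is the allelic count of a gene with the library's total scaled to 1000000) in Experiment 1. In Experiment 2 the same 3 values were 3.91, 6.90 and 7.83, and in Experiment 3 they were 7.59, 9.90 and 11.5. The lowest Experiment 1 library was above the highest of the other two experiments, and Experiments 2 and 3 overlapped slightly. The mean fell from 49.2 ± 3.98 in Experiment 1 to 6.34 ± 1.57 in Experiment 2 (SD, n = 6 each), a ratio of 7.76. With scaling by TMM (edgeR's trimmed mean of M-values), the log2 change was −2.60 ± 0.128 (SE), and edgeR's quasi-likelihood test gave an adjusted p of 1.63e-16. Between Experiments 2 and 3 Nphs1 rose by a log2 change of 0.61 ± 0.192, with an adjusted p of 0.0374 in edgeR's test. That call was lost when any 1 of 6 libraries was left out. The pooled allelic counts of nephrin were 1875 in Experiment 1, 243 in Experiment 2 and 386 in Experiment 3. Its antisense neighbour Nphs1os shares 597 bases of exon with it in GENCODE vM21, and the authors' counting left out regions where genes overlap. In its own row of the table Nphs1os was counted 14 times in Experiment 1 and 0 times in Experiments 2 and 3.

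Synaptopodin followed nephrin. Synpo was read at 81.8, 100.3 and 106.7 CPM in Experiment 1 (lowest, median and highest library), at 17.9, 19.8 and 26.4 in Experiment 2 and at 25.05, 28.9 and 36.9 in Experiment 3. Experiment 1 did not overlap with either of the others. The log2 change from Experiment 1 to Experiment 2 was −1.86 ± 0.0905, with an adjusted p of 1.21e-16 in edgeR's test, and the means of 96.7 and 20.8 CPM differ by a ratio of 4.64. From Experiment 2 to Experiment 3 Synpo rose by 0.53 ± 0.119 on the log2 scale (adjusted p = 0.00493, edgeR), and 1 library of Experiment 2 lay within the range of Experiment 3.

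Podocalyxin gave the most counts of the 7 genes. Podxl was read at 297.5, 393.0 and 413.9 CPM in Experiment 1, at 177.7, 184.0 and 190.8 in Experiment 2 and at 147.0, 172.4 and 190.1 in Experiment 3. Experiment 1 lay above both others, whose ranges overlap. The level of Experiment 2 was 0.483 of that of Experiment 1, and the log2 change was −0.69 ± 0.054 (adjusted p = 4.22e-12, edgeR). Against Experiment 2, Experiment 3 differed by a log2 change of −0.12 ± 0.0601, which did not pass the test (adjusted p = 0.194, edgeR). The lowest library of Experiment 1 was replicate 1, and the others lay between 384.6 and 413.9. Without that library the log2 change from Experiment 1 to Experiment 2 was −0.75.

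Wt1, the transcription factor, fell in both steps. It was read at 14.6, 18.2 and 24.02 CPM in Experiment 1, at 6.57, 8.76 and 10.1 in Experiment 2 and at 2.43, 4.69 and 7.56 in Experiment 3. The libraries of Experiment 1 did not overlap with the others, and those of Experiments 2 and 3 did. The log2 change was −0.75 ± 0.15 from Experiment 1 to 2 (adjusted p = 6.76e-05, edgeR) and −0.76 ± 0.251 from Experiment 2 to 3 (adjusted p = 0.048, edgeR). The call from Experiment 2 to 3 was lost when any 1 of 10 libraries was left out. In Experiment 3 a library held between 16 and 50 allelic counts of Wt1.

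The adaptor Cd2ap changed least among the genes that passed. It was read at 55.3, 57.4 and 67.6 CPM in Experiment 1, at 32.4, 36.6 and 40.9 in Experiment 2 and at 22.9, 31.2 and 42.0 in Experiment 3. Experiment 1 lay above both others, and the ranges of Experiments 2 and 3 overlap. The log2 change from Experiment 1 to Experiment 2 was −0.37 ± 0.0788 (adjusted p = 0.000154, edgeR). Between the SMARTseq experiments it was −0.15 ± 0.124 (adjusted p = 0.493, edgeR).

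Ptpro and Magi2 did not pass in any of the 3 comparisons of level. The phosphatase gene Ptpro was read at 9.76, 11.3 and 13.0 CPM in Experiment 1, at 6.45, 7.66 and 10.0 in Experiment 2 and at 2.42, 6.29 and 10.7 in Experiment 3. Its ranges overlap between all experiments, and the log2 change from Experiment 1 to 2 was −0.13 ± 0.154 (adjusted p = 0.44, edgeR). Scaled to library totals in place of TMM, the change of Ptpro was −0.49 and passed (adjusted p = 0.00517, edgeR). The scaffold gene Magi2 was read at 0.791, 2.02 and 3.15 CPM in Experiment 1, at 0.939, 1.25 and 2.04 in Experiment 2 and at 1.36, 1.59 and 3.19 in Experiment 3. A library held only 5 to 21 of its allelic counts, and its log2 change from Experiment 1 to 2 was −0.19 ± 0.369 (adjusted p = 0.648, edgeR). A difference of the size seen in Podxl was therefore not detectable in Magi2 at this depth. Magi2 shares 203 exonic bases with Gm29254, which was counted 4, 15 and 9 times in Experiments 1, 2 and 3.

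**Figure D1:**
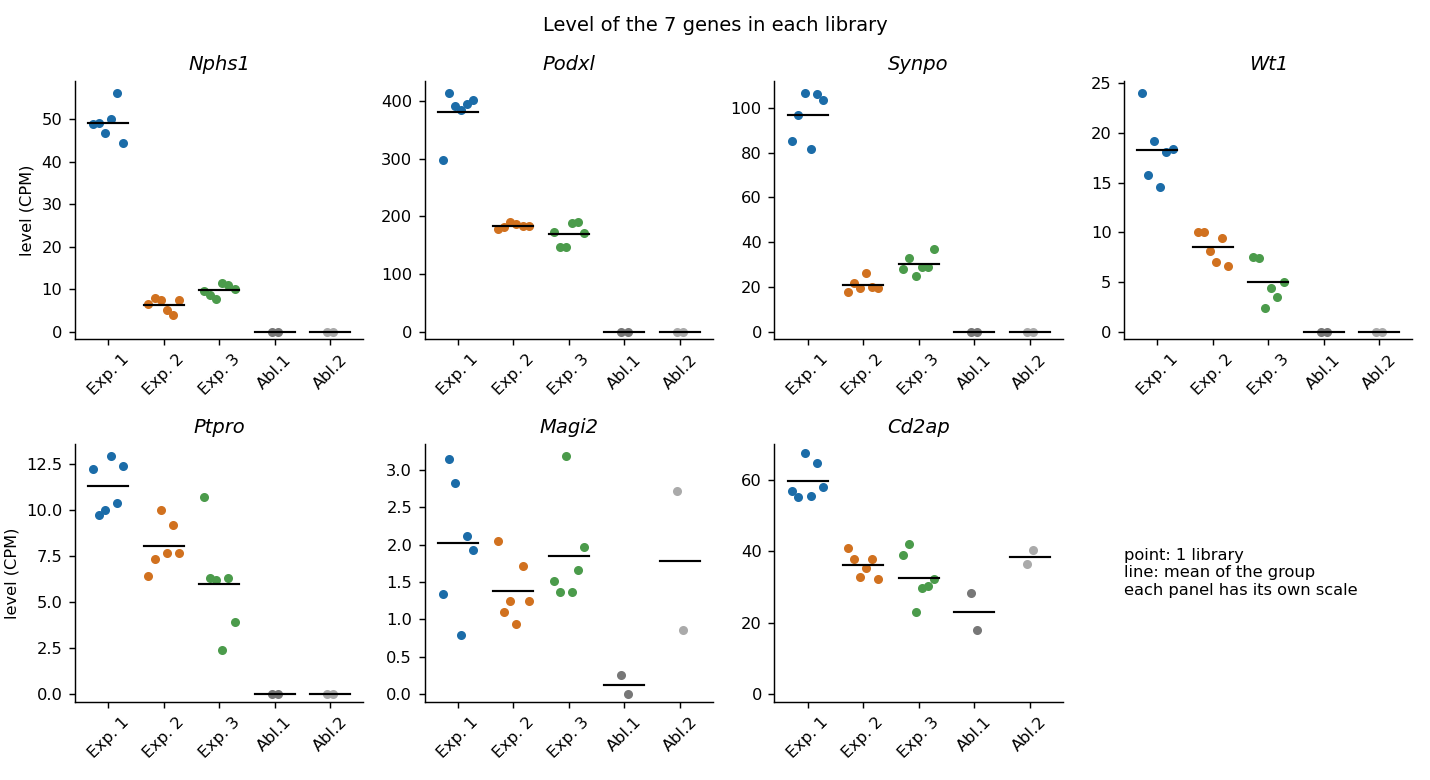
Level of each of the 7 genes in CPM (vertical axis, from 0, with its own scale in each panel) in every library of Experiments 1 to 3 and of the first run of the Abl lines. Points are libraries and lines are group means. For Nphs1, Podxl, Synpo, Wt1 and Cd2ap all 6 libraries of Experiment 1 lie above all libraries of Experiments 2 and 3. Libraries of Experiments 1 and 2 do not overlap for 63.5% of all genes tested, and those of Experiments 1 and 3 for 55.2%. In the Abl lines Cd2ap is read in every library and Nphs1, Synpo, Wt1 and Ptpro have no count.

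Taken as a group, 5 of the 7 genes were lower in Experiment 2 than in Experiment 1 and 0 were higher, all 7 having passed the filter of 10 counts in at least 6 of the 12 libraries. Over all 12012 genes tested, 39.5% were called lower and 38.2% higher. The libraries of both experiments did not overlap for the same 5 of 7 genes, as for 63.5% of all genes. The median log2 change of the 7 genes was −0.69, against −0.03 over all genes. This split depends on the scaling: with library totals the median over all genes was −0.39, and of 9700 genes called 3407 (35.1%) were higher and 6293 lower, against 4584 (49.2%) higher of 9323 called with TMM. None of the 5 calls was lost under library totals, and the log2 change of Nphs1 was then −2.95. Without replicate 1 of Experiment 1 the count was 5 of 7 as well.

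Between Experiments 2 and 3, which share the kit and differ in input and preparation set, fewer genes moved. From Experiment 2 to Experiment 3, 2 of the 7 genes (Nphs1 and Synpo) rose and 1 (Wt1) fell, where 8.77% of the 11761 genes tested rose and 6.9% fell. The libraries overlapped for each of the 7 genes, as against 9.11% of all genes whose libraries did not overlap. The call of Synpo held without each single library. The call of Nphs1 was lost, with adjusted p between 0.0554 and 0.0903 in edgeR's test, without replicate 1, 4 or 5 of Experiment 2 or without replicate 4, 5 or 6 of Experiment 3, and with the replicate block (0.0876). The call of Wt1 was lost without any single replicate of Experiment 2 or without replicate 3, 4, 5 or 6 of Experiment 3, with adjusted p between 0.0509 and 0.106, and when libraries were thinned to the smallest total (0.0508). Both calls were lost without a filter on low counts (0.0642 for Nphs1 and 0.0598 for Wt1). Leaving out replicate 1, 4 or 5 of Experiment 2, or replicate 4, 5 or 6 of Experiment 3, left 1 of 7 genes called.

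Experiments 1 and 3 differ in kit and in input, and their comparison shares its libraries with the other comparisons. Of the 7 genes 5 were lower and 0 higher in Experiment 3, where 34.7% of 12054 genes were called lower and 34.6% higher. The libraries did not overlap for these 5 genes, and for 55.2% of all genes. The log2 changes were −1.98 ± 0.125 in Nphs1, −1.51 ± 0.241 in Wt1 and −1.33 ± 0.102 in Synpo. Podxl changed by −0.81 ± 0.076 and Cd2ap by −0.51 ± 0.123, and the adjusted p of these 5 genes lay between 1.56e-11 and 0.00102 in edgeR's test. Ptpro changed by −0.56 ± 0.266 (adjusted p = 0.0682, edgeR), and without replicate 1 of Experiment 3 by −0.80, which passed (adjusted p = 0.00829, edgeR), as did −0.91 with library totals (0.00454) and −0.56 with all 18 kidney libraries in 1 fit (0.034). Magi2 changed by 0.22 ± 0.424 (adjusted p = 0.663, edgeR), a value whose sign turned with library totals (−0.14). Here too the median over all genes moved with the scaling, from −0.04 with TMM to −0.40 with library totals, and the share of higher genes among those called moved from 49.96% to 35.0%.

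**Figure D2:**
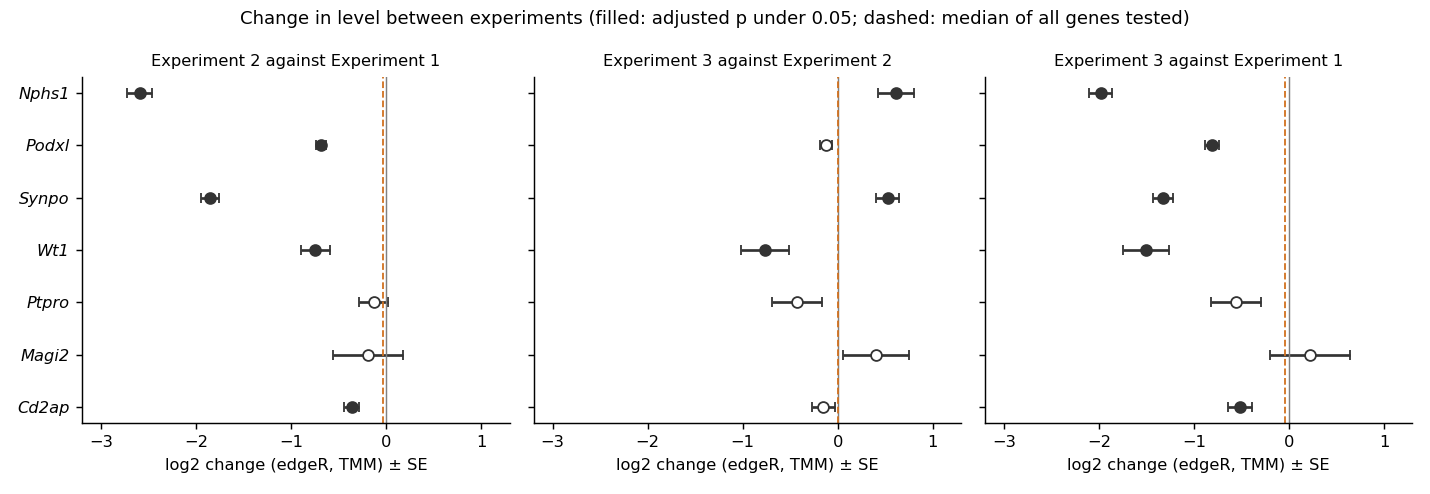
Log2 change of each of the 7 genes between experiments (horizontal axis, edgeR with TMM scaling, first named experiment over the second, bars are SE). Filled points passed an adjusted p of 0.05 and the dashed line is the median of all genes tested: Nphs1 (−2.60) and Synpo (−1.86) lie farthest from it in the comparison of Experiment 2 with Experiment 1, and both lie above 0 when Experiment 3 is compared with Experiment 2.

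The 7 genes differ in base composition. In the longest coding transcript of GENCODE vM21, GC made up 58.2% of Synpo, 56.4% of Nphs1, 53.7% of Wt1 and 52.0% of Podxl. It made up 50.7% of Magi2, 50.2% of Ptpro and 38.6% of Cd2ap, and the median gene tested had 50.4%. The 2 genes with most GC were thus those with the largest fall from Experiment 1 to 2, and the same 2 rose from Experiment 2 to 3. Other members went otherwise: Cd2ap, with the least GC, also fell from Experiment 1 to 2 (−0.37). Wt1, with 53.7%, fell from Experiment 2 to 3 (−0.76). From Experiment 2 to 3 the calls of Nphs1 and Wt1 did not hold without each single library. Across the 11285 genes with a value, Spearman's rho between GC and log2 change was −0.27 from Experiment 1 to 2, and across 11021 genes it was 0.38 from Experiment 2 to 3. Both are descriptions across genes, which share these libraries and are not independent replicates. The part of base composition in the change of the 7 genes was not tested.

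**Figure D3:**
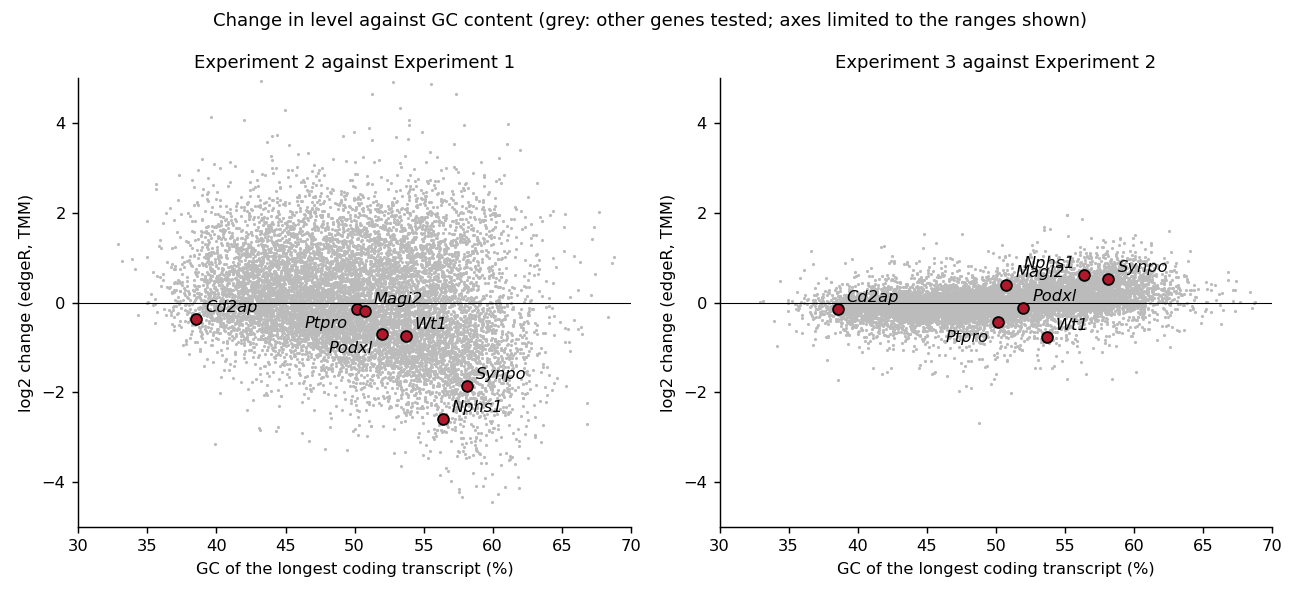
Log2 change of each gene (vertical axis, edgeR with TMM scaling) against the GC content of its longest coding transcript in percent (horizontal axis), from Experiment 1 to 2 (left) and from Experiment 2 to 3 (right). Grey points are the genes tested and red points the 7 podocyte genes: Nphs1 (56.4% GC) and Synpo (58.2% GC) lie lowest of the 7 on the left and highest of the 7 on the right.

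Other podocyte genes were compared from a list of 23 genes enriched in this cell type. Of these, 20 could be tested between Experiments 1 and 2, where 15 were lower and 4 higher in Experiment 2. Over all genes tested 39.5% were called lower and 38.2% higher. The median log2 change of the list was −0.90. Sema3g, which encodes a secreted semaphorin, fell from 268.8 ± 18.2 to 14.5 ± 1.88 CPM (SD, n = 6 each), a log2 change of −3.85 ± 0.0713. Between Experiments 2 and 3, 17 were tested, 5 rose and 2 fell (8.77% and 6.9% of all genes), with a median of 0.04. Nes (nestin, an intermediate filament protein) rose by 1.00 ± 0.163, Col4a4 (a collagen chain of the glomerular basement membrane) by 0.85 ± 0.0845 and Itga3 (the integrin chain that anchors podocytes to it) by 0.67 ± 0.0854. From Experiment 1 to 3, 14 of 20 fell and 4 rose (34.7% and 34.6% of all genes). Sema3g again changed most, by −3.31 ± 0.114. Cdkn1c, an imprinted inhibitor of the cell cycle, rose by 2.12 ± 0.128 from 11.1 ± 1.54 to 37.98 ± 4.03 CPM, with a transcript of 59.4% GC.

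A list of 19 genes that foot processes share with many cell types gave similar counts. Of 18 tested, 12 fell and 3 rose from Experiment 1 to 2 (39.5% and 38.2% of all genes), with a median log2 change of −0.89. The laminin chains of the basement membrane fell most, with log2 changes of −4.09 ± 0.173 in Lamb2, from 52.3 ± 8.68 to 2.37 ± 0.801 CPM, and of −2.68 ± 0.103 in Lama5. From Experiment 2 to 3, 4 of 18 rose and 0 fell (8.77% and 6.9% of all genes). From Experiment 1 to 3, 13 fell and 3 rose (34.7% and 34.6% of all genes), with Lamb2 changed by −3.22 ± 0.211. Both lists were chosen with earlier results of these data known.

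Genes of other kidney cells moved between the experiments as well. For the counts below, 39.5% of all genes tested fell from Experiment 1 to 2 and 38.2% rose. The proximal tubule list, which fits the kidney label, summed to 24507 to 33518 CPM over the kidney libraries and to 4.20 to 32.4 in the Abl lines. Of 8 endothelial genes 7 fell and 1 rose from Experiment 1 to 2, and their summed level spanned 1129 to 1189 CPM in Experiment 1. In Experiment 2 this sum spanned 739.4 to 771.5, and in Experiment 3 it spanned 839.3 to 891.5. Of 7 tested genes of mesangium, stroma and muscle 5 fell and 2 rose, with a median log2 change of −0.86 from Experiment 1 to 2. Their summed levels were 633.1 to 679.3, 700.1 to 747.0 and 708.4 to 792.3 in Experiments 1, 2 and 3. Ren1, 1 of the genes that rose, makes up the largest part of this sum, with means of 323.7 CPM in Experiment 1 and 532.4 in Experiment 2. Of 9 tested proximal tubule genes 6 fell and 3 rose, while of 7 tested genes of thick limb and distal tubule 3 fell and 4 rose, and Miox and Pvalb of these lists had no count in any kidney library. Of 8 collecting duct genes 3 fell and 3 rose, of 3 parietal epithelial genes 2 fell, and of 4 tested immune genes 1 fell and 2 rose. The summed level of the 7 podocyte genes was 525.9 to 651.9, 259.0 to 269.8 and 214.5 to 271.7 CPM in Experiments 1, 2 and 3, of which Podxl makes up the largest part. All kidney libraries hold the same RNA, and the part of the other cell types in the results was not tested.

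In the Abl lines the 7 genes separated. Nphs1, Synpo, Wt1 and Ptpro had 0 counts in both libraries of Abl.1 and of Abl.2 and in the second run of Abl.2. A count of 0 allows up to 0.0724 CPM in Abl.1 and 0.0689 in Abl.2 (3 counts over both libraries, for counting error only and with counts taken as independent). With the same kit and input, the mean level in Experiment 2 was by this bound at least 87.6-fold higher than in Abl.1 for Nphs1, at least 288.1-fold for Synpo, at least 117.9-fold for Wt1 and at least 111.4-fold for Ptpro. RNA extraction, sequencing machine and sequencing site differed between kidney and Abl lines, and the Abl reads were longer and paired. The bounds are not matched for these differences. In Abl.1 and Abl.2, 8 and 7 of 8 collecting duct genes had no count, as had 8 and 6 of 8 genes of thick limb and distal tubule. Of 10 proximal tubule genes 7 and 7 had none, of 8 endothelial genes 2 and 6. Of the 23 podocyte-enriched genes 11 and 13 had none. Absence from the Abl lines was thus not particular to podocyte genes, and the share over all genes was not counted. Podxl had 3 and 0 counts in Abl.1, 6 and 0 in Abl.2 and 1 and 2 in the second run of Abl.2. Magi2 had 5 and 0 counts in Abl.1, 58 and 19 in Abl.2, and 58 and 39 when the same Abl.2 libraries were sequenced again. In Abl.2 it was thus read at 2.72 and 0.857 CPM, the range in which the kidney libraries lay. Cd2ap was read at 28.3 and 17.9 CPM in Abl.1 and at 36.4 and 40.4 in Abl.2, where Experiment 2 had 32.4 to 40.9. In bulk samples fewer cells of a type and less RNA per cell cannot be told apart, and cell lines and kidney were not tested against each other.

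In part of the genes the spread between replicate libraries was larger in Experiment 3 than in Experiment 2. The coefficient of variation of CPM in Experiment 3 was 47.0% in Ptpro, 41.3% in Wt1 and 37.9% in Magi2, above the median of 17.8% over all genes with 10 counts in each of the 6 libraries. These genes had the fewest pooled counts of the members in Experiment 3 (238, 200 and 73), and Magi2 did not meet that filter. No median over genes of like counts was taken. In Experiment 2 the same genes had 16.3%, 17.8% and 30.1%, against a median of 11.2%, and in Experiment 1 they had 12.2%, 17.95% and 43.6%, against 13.3%. Podxl, with the most counts, varied by 11.03%, 2.39% and 11.2% in Experiments 1, 2 and 3. Cd2ap varied by 8.79%, 9.16% and 21%, Nphs1 by 8.08%, 24.7% and 14.8%, and Synpo by 11.3%, 14.3% and 13.9%. At 10 or more counts, Magi2 was present in 4, 2 and 4 of the 6 libraries of Experiments 1, 2 and 3, and the other 6 genes in every library.

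AI is the share of the allelic counts of a gene that stand in the maternal column, and it is 0.5 where both alleles are read alike. Over kidney, 12 of 13 imprinted genes with at least 50 pooled counts leaned to the column opposite to their known parental origin, so the column is given by its name only. The exception lay near 0.5, at a pooled AI of 0.446, as did a gene among the 12, at 0.460. All 7 genes reached 50 pooled counts in each experiment. Pooled AI was tested against 0.5 with the two-sided proportional test, after dividing counts by the square of QCC, with Bonferroni adjustment over all genes.

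Of the 7 genes 1 departed from 0.5 in Experiment 1, where 16.6% of 12315 genes did. This was Synpo, at a pooled AI of 0.575 (95% QCC-corrected interval 0.546 to 0.604, 3680 counts) with an adjusted p of 0.00909 in the proportional test. Its 6 libraries lay at 0.503 to 0.644 (median 0.586), all above 0.5. The call was lost without replicate 2 (adjusted p = 0.373), replicate 3 (0.149) or replicate 5 (1.00), and the pooled AI without each of the 6 libraries in turn lay between 0.0604 and 0.0871 above 0.5. In Experiments 2 and 3 Synpo had a pooled AI of 0.562 (0.511 to 0.611) and 0.561 (0.487 to 0.631), and neither passed. In these 2 experiments 0 of the 7 genes departed from 0.5 by this test, against 22.7% of 11971 genes and 12% of 12111. At an unadjusted p under 0.05 the test gave 4 of the 7 genes in Experiment 1, 1 in Experiment 2 and 2 in Experiment 3, beside 41.8%, 48.9% and 34.8% of all genes. With edgeR's test of both columns 2, 0 and 0 of the 7 were called, beside 32.4%, 41.6% and 22.6% of all genes.

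The pooled AI of Wt1 had the widest range over the experiments. In Experiment 1 the 6 libraries lay at 0.281 to 0.475 (median 0.432), all below 0.5, and the pooled value was 0.407 (0.342 to 0.475, 700 counts). In Experiment 2 they lay at 0.438 to 0.690 (pooled 0.547, 0.468 to 0.624, 327 counts), and in Experiment 3 at 0.435 to 1.00 (pooled 0.680, 0.501 to 0.818, 200 counts). Libraries of all 3 experiments overlap. The log2 odds ratio of both columns between Experiments 2 and 1 was 0.86 ± 0.299, with an unadjusted p of 0.00766 and an adjusted p of 0.0656 in edgeR's test, and so did not pass over 10127 genes. Without replicate 1 of Experiment 2 it was 1.00 and passed (adjusted p = 0.0389, edgeR). Between Experiments 3 and 1 it was 1.65 ± 0.626 (adjusted p = 0.159, edgeR).

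Podxl, the gene with the narrowest intervals, lay at a pooled AI of 0.484 (0.469 to 0.499), 0.485 (0.468 to 0.502) and 0.545 (0.514 to 0.576) in Experiments 1, 2 and 3. Of its 6 libraries, 1 lay above 0.5 in Experiment 1, 2 in Experiment 2 and 5 in Experiment 3, at 0.499 to 0.618 in the last. The log2 odds ratio between Experiments 3 and 2 was 0.34 ± 0.112 (adjusted p = 0.338, edgeR) and between Experiments 3 and 1 it was 0.35 ± 0.114 (adjusted p = 0.0872, edgeR). Neither passed.

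The other genes had wider intervals that hold 0.5, except that of Cd2ap in Experiment 1. Nphs1 had a pooled AI of 0.507 (0.465 to 0.548), 0.490 (0.399 to 0.581) and 0.446 (0.325 to 0.573) in Experiments 1, 2 and 3. In Experiment 3 its libraries fell at 0.276 to 0.300 in 3 cases and at 0.562 to 0.611 in the other 3. In the same order Cd2ap lay at 0.457 (0.420 to 0.495), 0.466 (0.428 to 0.505) and 0.435 (0.367 to 0.506), and below 0.5 in 4, 6 and 5 of 6 libraries. Ptpro lay at 0.513 (0.427 to 0.598), 0.463 (0.383 to 0.544) and 0.462 (0.310 to 0.622). Magi2, at 53 to 77 pooled counts, lay at 0.494 (0.304 to 0.685), 0.585 (0.392 to 0.755) and 0.493 (0.240 to 0.750), and its single libraries spanned 0.00 to 0.80 in Experiment 1.

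**Figure D4:**
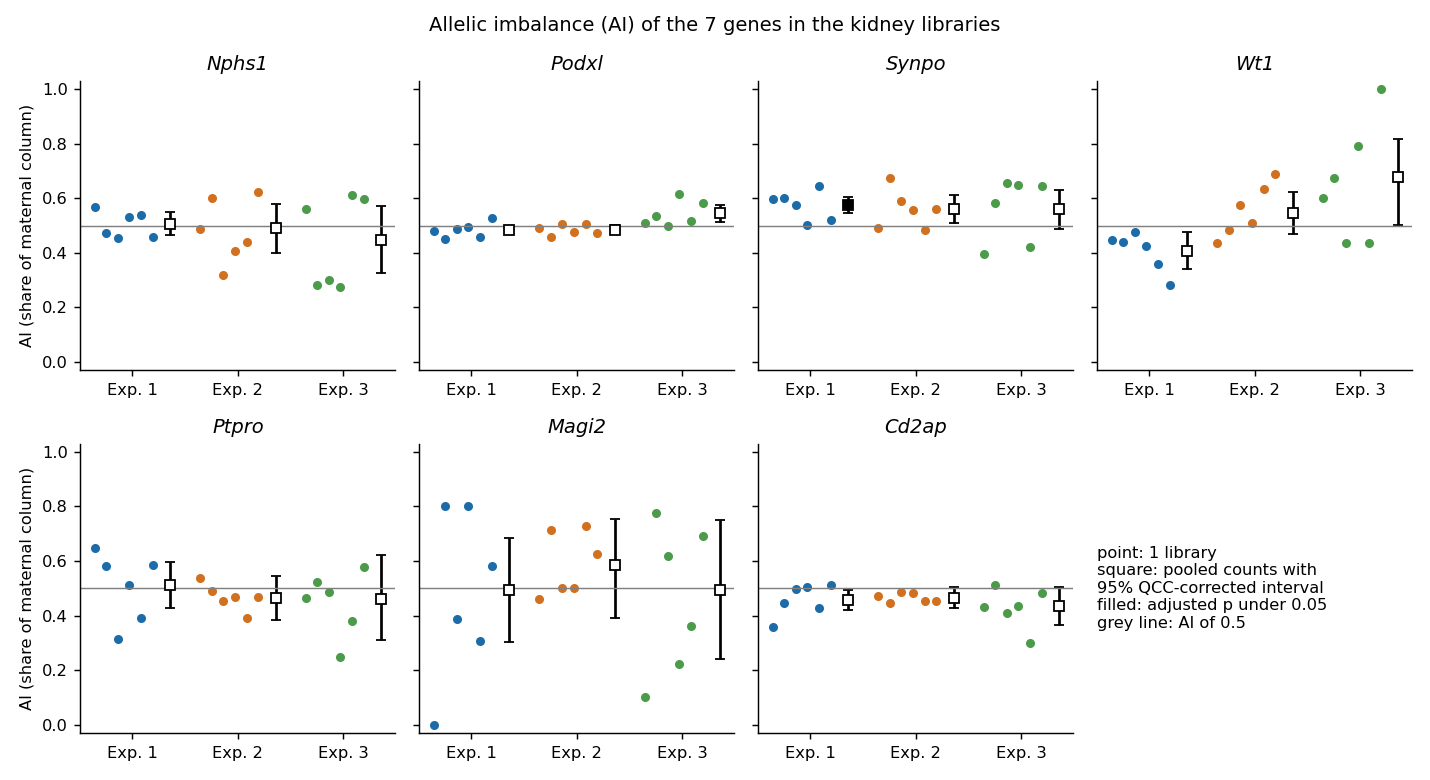
AI, the share of allelic counts in the maternal column (vertical axis, 0 to 1), of each of the 7 genes in the 6 libraries of each kidney experiment (points), with the pooled value and its 95% QCC-corrected interval (squares). Only the Synpo value of Experiment 1 (0.575, filled) passed the test against 0.5, Wt1 lies at 0.407, 0.547 and 0.680 in Experiments 1, 2 and 3, and the 6 points of Magi2 in Experiment 1 span 0.00 to 0.80.

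Between experiments, AI was compared with edgeR's quasi-likelihood test on both columns, in a model with 1 coefficient per library, 1 for the allele and 1 for its interaction with the experiment. The test covered 6 of the 7 genes, since Magi2 did not reach 10 counts in each library. From Experiment 1 to 2, 0 of 6 genes passed, where 10.6% of 10127 genes did, and 1 (Wt1) had an unadjusted p under 0.05 (21.3% of all genes). From Experiment 2 to 3, 0 of 6 passed, where 0.639% of 10020 did, and 1 (Podxl) had an unadjusted p under 0.05 (8.09% of all genes). From Experiment 1 to 3, 0 of 6 passed, where 6.24% of 9733 did, and Podxl and Wt1 had an unadjusted p under 0.05 (17.4% of all genes). DESeq2 and limma called 0 of the 6 genes in each of the 3 comparisons. For Nphs1, Synpo, Ptpro and Cd2ap the log2 odds ratios from Experiment 1 to 2 were −0.10 ± 0.265, −0.08 ± 0.182, −0.24 ± 0.346 and 0.05 ± 0.158, errors that would leave a shift of their own size undetected.

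In the median gene the SD of AI over the 6 libraries exceeded the binomial SD in every experiment. The ratio was lowest in Experiment 2, at 1.31, while Experiments 1 and 3 had 1.65 and 2.17. It thus did not rise steadily with lower input, and input and preparation set cannot be told apart between Experiments 2 and 3. For Podxl this ratio was 2.72, 1.38 and 3.13 in Experiments 1, 2 and 3, for Synpo 2.64, 1.61 and 3.35, and for Nphs1 1.73, 1.44 and 2.68. For Cd2ap it was 2.31, 0.519 and 2.12, for Wt1 1.55, 1.40 and 2.49, and for Ptpro 2.16, 0.683 and 1.32. For Magi2, with the fewest counts, it was 2.01, 0.681 and 1.83. In all of these genes Experiment 3 lay above Experiment 2, as did the median gene, and the share of all genes that did so was not counted.

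Several other podocyte genes did pass the comparison of AI. Of 17 tested genes enriched in podocytes, 5 passed from Experiment 1 to 2, where 10.6% of all genes did. In the same comparison 4 of 8 collecting duct genes and 0 of 8 endothelial genes passed, so such calls were not particular to podocyte genes. Npnt, which encodes the matrix protein nephronectin, went from a mean AI of 0.598 ± 0.0259 to 0.829 ± 0.0141 (SD, n = 6 each), a log2 odds ratio of 1.70 ± 0.0857. Thsd7a, a membrane protein of the podocyte, went from 0.451 ± 0.0646 to 0.255 ± 0.0393, and Col4a4 from 0.555 ± 0.028 to 0.672 ± 0.0337. From Experiment 1 to 3, 1 of 17 passed (6.24% of all genes), again Npnt, at 0.843 ± 0.0277 in Experiment 3. Of the broadly expressed foot process genes 1 passed in each comparison, Cd151, a tetraspanin that binds integrins, which had a mean AI of 0.425 ± 0.0209, 0.373 ± 0.0151 and 0.232 ± 0.0305 in Experiments 1, 2 and 3. From Experiment 2 to 3, 0 of the 17 podocyte-enriched genes passed edgeR's test, where 0.639% of all genes did.

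For each gene the nearest other gene was sought by Euclidean distance over the mean log2(CPM + 1) of 5 groups, Experiments 1 to 3, Abl.1 and Abl.2. Since CPM also carries the number of SNPs in a gene, a short distance describes alike values in these tables and not alike amounts of transcript. The nearest pair was Synpo with Rgl3 (distance 0.0337), whose levels were 97.1, 21.4 and 30.2 CPM in Experiments 1, 2 and 3 and 0 in both Abl lines. Nphs1 was nearest to Rusc2 (0.298) and Podxl to Snhg11 (0.237). Wt1 was nearest to Zfp334 (0.119), Ptpro to Mro (0.194), Magi2 to Gm4117 (0.276) and Cd2ap to Inpp5b (0.225).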

How the data were processed

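RNA-seq of 18 kidney libraries (Experiments 1 to 3) and of the Abl.1 and Abl.2 lines (4 libraries, 2 of them sequenced again) was analysed, grouped by title. The authors mapped reads with STAR 2.5.4a to a pseudogenome of each strain (GRCm38), took uniquely aligned reads, sampled libraries to equal size, and read alleles at SNP positions through samtools mpileup. They added these up per gene over merged exons (Ensembl release 68) without regions where genes overlap. The deposited files hold the resulting raw counts per gene and allele for 37315 genes, of which 1884 have no symbol or position. Sampling to equal size and reading only at SNPs limit precision for genes with few SNPs. The deposited AI tables hold the authors' pooled fractions and were not used.

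Levels (CPM) are the sum of both alleles with each library's total scaled to 1000000. edgeR's quasi-likelihood test compared levels (TMM, at least 10 counts in 6 of 12 libraries) and AI (a coefficient for each library, for the allele and for its interaction with the experiment, at least 10 counts in each of 12 libraries), with Benjamini-Hochberg adjustment at 0.05 over all genes. SE is the log2 change divided by the root of the F statistic. QCC was fitted as the study describes, with 5000 draws and 7 quantiles, using coverage bins (base 1.05) that held 40 genes or more and a mean coverage of 50. Genes needed 50 pooled counts for AI. All procedures were tested on simulated data. Intervals cover counting error and QCC only.

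The members and lists were chosen with earlier results of these data known. Named are all 7 genes, and, of both other podocyte lists taken as 1, the 3 genes with the largest absolute log2 change among those that passed in each comparison of level, those that passed for AI (at most 3 in a comparison), and the nearest gene of each member. Other cell type lists are given mainly as counts and summed levels, with Ren1 named for its part in a sum and Miox and Pvalb for having no count.

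Replicate numbers do not pair libraries: deviations of equally numbered libraries correlated at −0.0285 to 0.0258 over 8524 genes. Alternatives were DESeq2, limma, other scalings, filters, adjustments and null values, thinning, 1 fit of all kidney libraries, the replicate block and each library left out. GENCODE vM21 gave exons and GC content. Models were fitted in R 4.3.3 (limma 3.58.1, edgeR 4.0.16, DESeq2 1.42.0), and the rest ran in Python 3.11.15 (pandas 2.3.3, scipy 1.17.1, numpy 2.4.6, matplotlib 3.10.9).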

Additional observations from a re-analysis of the deposited data

Results flagged for a closer look

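In 2 of 42 groups of 6 libraries (7 genes in 3 experiments, for level and for AI) 1 library lay far from the others by Dixon's criterion, and chance alone flags about 5% of groups. Podxl was read at 297.5 CPM in replicate 1 of Experiment 1, where the other libraries lay between 384.6 and 413.9. Magi2 was read at 3.19 CPM in replicate 3 of Experiment 3, where the others lay between 1.36 and 1.97, at 9 to 21 counts per library.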

How the results depend on the processing

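Calls of level between Experiments 1 and 2 covered the same number of the 7 genes (5) under every alternative, apart from library totals, which added Ptpro (−0.49). Between Experiments 2 and 3 the 3 called genes fell to 1 without a filter on low counts, where Nphs1 (adjusted p = 0.0642, edgeR) and Wt1 (0.0598) were lost, and to 1 to 3 when single libraries were left out. Thinning to the smallest library total also lost Wt1 (−0.77, adjusted p = 0.0508, edgeR). Between Experiments 1 and 3 Ptpro passed with library totals (−0.91) and with all 18 kidney libraries in 1 fit (−0.56), and the log2 change of Magi2 turned to −0.14 with library totals and lay between −0.0016 and 0.38 without single libraries.

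The test of AI against 0.5 depends on how spread is treated. In Experiment 1, with 1 gene of 7 and 2046 genes in all, the counts were 2 and 4107 without QCC, 2 and 4321 with Benjamini-Hochberg adjustment and 2 and 3994 in edgeR's test, the added gene being Wt1 each time, and 0 to 1 of the 7 without single libraries. In Experiment 2, with 0 and 2713, Benjamini-Hochberg adjustment gave 1 (Synpo) and 5174 and edgeR's test 4980 genes. In Experiment 3, with 0 and 1456, the counts were 3 (Podxl, Wt1 and Cd2ap) and 4601 without QCC, 1 (Podxl) and 3300 with Benjamini-Hochberg adjustment, and edgeR's test gave 2733 genes. Measured from the pooled maternal share in place of 0.5, AI of uncalled genes changed side to 0.0163 (Podxl) and 0.0263 (Magi2) above it in Experiment 1, 0.00916 (Nphs1) and 0.00470 (Podxl) in Experiment 2 and 0.0113 (Magi2) in Experiment 3. Without single libraries the uncalled distances from 0.5 spanned −0.00646 to 0.0168 in Nphs1, −0.0186 to 0.0477 in Ptpro and −0.114 to 0.0588 in Magi2 in Experiment 1, −0.0436 to 0.0306 in Nphs1 in Experiment 2 and −0.0577 to 0.0556 in Magi2 in Experiment 3.

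For AI between experiments, the 1074 genes called from Experiment 1 to 2 became 670 with limma and 433 with the proportional test, the 607 from Experiment 1 to 3 became 399 and 286, and the 64 from Experiment 2 to 3 became 101 with DESeq2, 26 with limma and 29 to 61 without single libraries. Of the 6 genes tested 0 to 1 passed from Experiment 1 to 2 without single libraries (Wt1 without replicate 1 of Experiment 2). Log2 odds ratios without single libraries crossed 0 from Experiment 1 to 2 in Nphs1 (−0.289 to 0.119), Podxl (−0.0276 to 0.0626), Cd2ap (−0.0628 to 0.117) and Synpo (−0.213 to 0.0108), from Experiment 2 to 3 in Ptpro (−0.197 to 0.0982) and Synpo (−0.116 to 0.185), and from Experiment 1 to 3 in Synpo (−0.194 to 0.104). The cause of these changes was not tested.

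With the replicate number as a block, Nphs1 was no longer called from Experiment 2 to 3 (0.63, adjusted p = 0.0876, edgeR), which left 2 genes, and the block changed no other call of the 7 genes. All-gene counts with the block were 9214, 1556 and 8261 for level and 1005, 28 and 502 for AI (Experiment 2 against 1, 3 against 2 and 3 against 1). The replicate numbers come from the labels and share only a number.

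Few counts limit the precision of AI in Magi2 (53 to 77 pooled counts per experiment) and Wt1 (200 to 700). All libraries come from 1 kidney, so the spread between animals was not measured.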
